A study of Mus musculus with 10 samples.

Results

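The imprinted growth network genes examined here were 9 genes, namely *H19*, *Igf2*, *Dlk1*, *Meg3*, *Peg3*, *Mest*, *Plagl1*, *Ndn* and *Grb10*. They were taken by gene symbol from a table of read counts, in which all 9 had a row among 55453 symbols. Of the 14614 genes with enough reads to be tested, 8 belonged to this set, and *Dlk1* fell below the low-count filter. The table came from bulk RNA sequencing of whole aortae, with 1 library for each of 10 male C57BL/6 mice. The young group held 5 mice aged 14.5 weeks and the old group 5 mice whose age the labels give as 92.5 weeks. Both groups were wild-type inbred males without a treatment, were killed at the same time, and had the fat around the adventitia removed before RNA was extracted. The study asked which genes differ between young and old arteries. Because the mice were all of 1 inbred strain and only counts per gene were used, the parental origin of the transcripts was not measured here.

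Imprinted genes are transcribed mainly from the maternal or the paternal chromosome, according to DNA methylation set in the germ line. In many tissues *Igf2*, *Dlk1*, *Peg3*, *Mest*, *Plagl1* and *Ndn* are known to be read from the paternal copy, and *H19*, *Meg3* and outside the brain *Grb10* from the maternal copy. A group of them is known to be expressed together at high levels in fetal and newborn tissue and to fall as body growth slows, and *Plagl1*, a zinc finger transcription factor, is known to regulate other members of that network.

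Total counts ranged from 20560415 to 22833794 in young and from 19640401 to 22886153 in old aortae, so that depth differed little between the groups. The 10 smooth muscle markers, the defining genes of the medial layer, summed to between 785319 and 996062 normalized counts in each mouse, where a normalized count is a read count divided by the library's size factor. Some libraries stood apart in other transcripts. Young mouse 1 had 24427 normalized counts of 10 adipocyte markers against 7403 to 13280 in the other young mice and 5491 to 11476 in old mice. Young mouse 2 had 1383 normalized counts of 10 striated muscle markers, against 190 to 346 in the other 9 mice. Mitochondrial genes took 11.0% of the counts of old mouse 2 and 4.50% to 6.51% in the rest, and old mouse 3 had the most leukocyte transcripts.

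The sequences below belong to the members and neighbours on which the results turn. *Plagl1* and *Peg3* were the 2 members whose young and old values did not overlap, and *Zim1* is the imprinted neighbour of *Peg3* that fell most. The stretches are the parts of their RefSeq promoter windows that lie outside annotated exons (build GRCm38.p6), written 5′ to 3′ on the gene's strand, with CpG dinucleotides, the sites of DNA methylation, in capitals.
Plagl1, chr10:13090582-13090690, plus strand: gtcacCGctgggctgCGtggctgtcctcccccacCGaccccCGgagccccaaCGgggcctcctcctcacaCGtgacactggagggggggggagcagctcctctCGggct
Peg3, chr7:6730432-6730577, minus strand: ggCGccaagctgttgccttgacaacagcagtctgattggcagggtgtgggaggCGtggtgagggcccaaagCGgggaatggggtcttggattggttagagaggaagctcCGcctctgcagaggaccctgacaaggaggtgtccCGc
Zim1, chr7:6696451-6696682, minus strand: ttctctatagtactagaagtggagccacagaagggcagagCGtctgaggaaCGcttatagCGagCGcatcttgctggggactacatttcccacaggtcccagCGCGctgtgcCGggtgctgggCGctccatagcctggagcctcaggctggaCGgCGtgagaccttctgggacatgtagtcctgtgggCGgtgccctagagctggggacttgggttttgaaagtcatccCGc

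The *Plagl1*, *Peg3* and *Zim1* stretches held 7, 5 and 12 CpG dinucleotides. In the full windows, from 250 bases before to 50 bases after each start, the counts were 26 for *Plagl1*, 13 for *Peg3* and 20 for *Zim1*, against a median of 7 and a mean of 12.4 over 32851 RefSeq promoters. The windows were available for 8 of the 9 members, as 15 promoters, and that of *H19* was not analysed here. Among member promoters the most CpG dinucleotides, 45, were in a *Grb10* window and the fewest, 1, in a *Meg3* window. The hexamer TGCCGC, searched on both strands, was present in 11.6% of all promoters and in at least 1 window of *Igf2*, *Meg3*, *Mest*, *Plagl1*, *Grb10* and *Zim1*. The palindrome GGGGCCCC was present in 1.08% of all promoters and, among the members, only in the *Peg3* window. These matches are descriptions of letters, and DNA methylation was not measured in these libraries.

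*Plagl1* was the member that changed with age by the test applied to all genes. It lies at chr10:13060504-13131694 (plus strand, GRCm38) and encodes the zinc finger transcription factor also called Zac1. In young mice 1 to 5 the normalized counts were 158.5, 144.9, 179.5, 167.1 and 172.1, and in old mice 1 to 5 they were 97.9, 128.6, 89.5, 121.5 and 73.9. Every old aorta was below every young aorta, and old mouse 5 was the lowest. The mean was 164.4 ± 13.3 over the 5 young mice and 102.3 ± 22.6 (SD) over the 5 old mice, a log2 fold change of -0.68 with a standard error of 0.15 and a 95% confidence interval from -0.998 to -0.358. The adjusted p was 0.0107 by edgeR's quasi-likelihood test with Benjamini-Hochberg adjustment. In whole-tissue RNA, fewer cells that express a gene and less of its RNA in each cell cannot be told apart.

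Across all genes tested, 11.5% were called at an adjusted p below 0.05, and 4.99% were called as lower in old aortae. Of the 8 tested members, 1 was called lower and 0 were called higher, and 0 were called higher with DESeq2 or limma-voom. At an unadjusted p below 0.05 in edgeR's quasi-likelihood test, 4 members (*Plagl1*, *Peg3*, *Grb10* and *Meg3*) were lower and 0 were higher, the share lower being 12.6% over all genes. The log2 fold change was negative for 7 of the 8 members and for 49.2% of all genes, and its median was -0.37 over the members and 0.00 over all genes. In 2 members, *Plagl1* and *Peg3*, no old value reached a young value, which was true of 4.55% of all genes tested. The members share libraries and are known to be co-expressed, so these counts were not tested as a set.

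**Figure D1:**
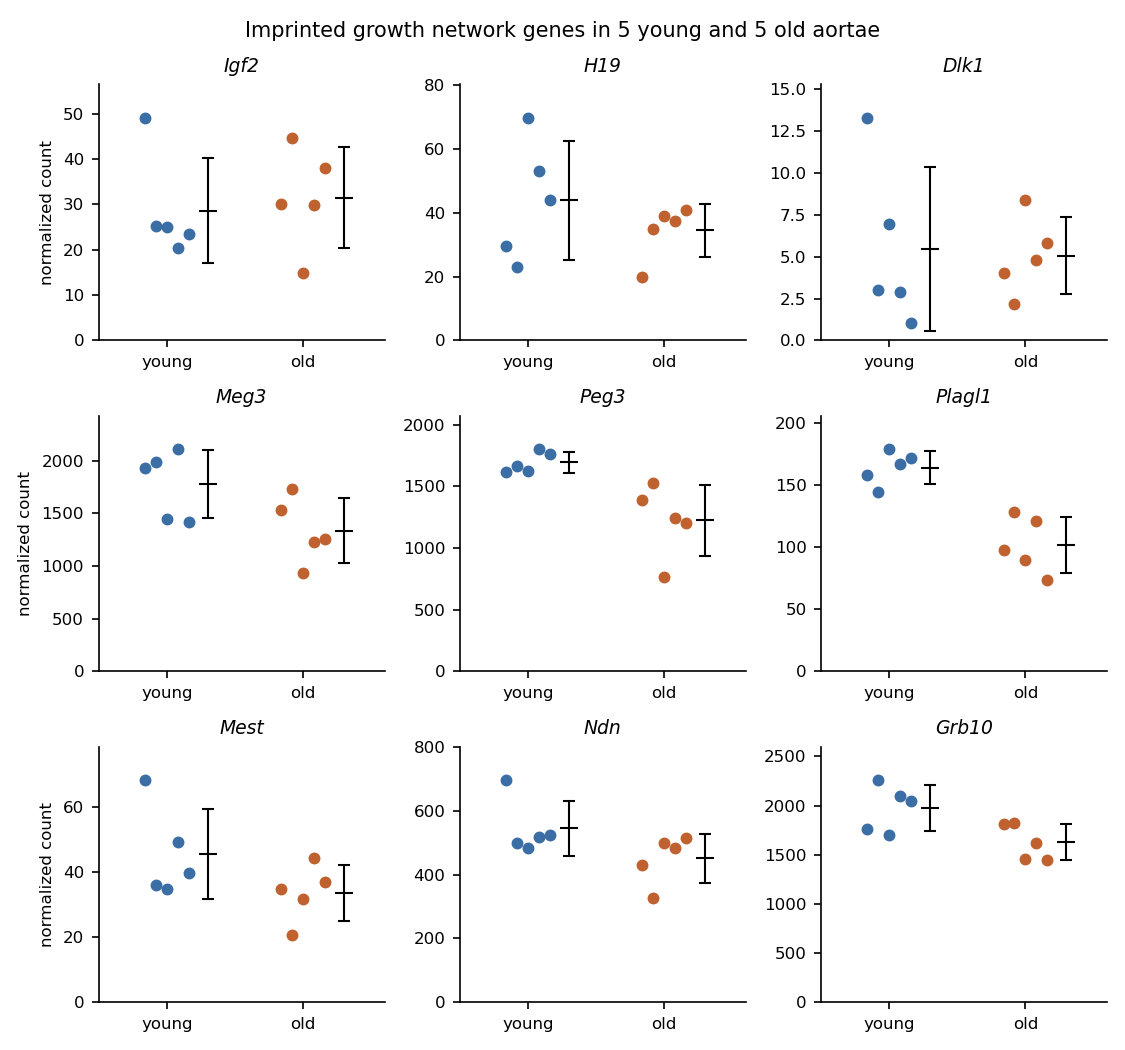
Normalized counts of the 9 imprinted growth network genes (vertical axes, each from 0) in 5 young and 5 old aortae, with 1 point per mouse in the order of mice 1 to 5 and bars for mean ± SD. The young and old points of *Plagl1* and *Peg3* do not overlap, while those of the other 7 genes do.

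*Peg3* encodes a large zinc finger protein that is among the best known paternally expressed genes, and it lies at chr7:6703892-6730431 (minus strand). Normalized counts in young mice 1 to 5 were 1617, 1664, 1626, 1804 and 1763, and in old mice 1 to 5 they were 1386, 1523, 761, 1242 and 1205. The old values were all below the young values, and old mouse 3 was far below the other old mice. *Peg3* averaged 1695 ± 84.0 over the 5 young mice and 1223 ± 287.5 (SD) over the 5 old mice. On the log2 scale the change was -0.46 with a standard error of 0.15, and the adjusted p of 0.0628 in edgeR's quasi-likelihood test did not pass the threshold of 0.05. Without old mouse 3 the log2 fold change was -0.33 with an adjusted p of 0.0160, and without old mouse 2 it was -0.56 with an adjusted p of 0.0285, both by edgeR. With DESeq2, the tool that the study itself used, the adjusted p of *Peg3* was 0.0138. Over 20 alternative fits it ranged from 0.0110 to 0.170 and passed 0.05 in 6.

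*Grb10* encodes an adaptor that binds the insulin and insulin-like growth factor receptors and is known to restrain growth. It lies at chr11:11930508-12038683 (minus strand). Normalized counts were 1768, 2262, 1697, 2102 and 2049 in young mice 1 to 5, and 1815, 1825, 1460, 1616 and 1451 in old mice 1 to 5. Young mice 1 and 3 lay within the range of the old mice, so that the groups overlapped. *Grb10* had a log2 fold change of -0.27 with a standard error of 0.09, and its adjusted p was 0.0839 in edgeR's quasi-likelihood test, with a range of 0.0231 to 0.186 over 20 alternative fits, of which 3 passed 0.05. Leaving out young mouse 1 gave an adjusted p of 0.0455 and leaving out young mouse 3 gave 0.0498 in the same edgeR test.

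*Meg3*, a long noncoding RNA, and *Dlk1*, a membrane protein of the Notch ligand family that is known as Pref-1 in preadipocytes, lie in 1 imprinted cluster of chromosome 12 and are read from opposite parental copies. *Meg3* (chr12:109541001-109571726, plus strand) had normalized counts of 1933, 1988, 1447, 2111 and 1416 in young mice 1 to 5, and of 1532, 1727, 932, 1232 and 1257 in old mice 1 to 5. The groups overlapped, since 2 young mice lay below old mice 1 and 2. The log2 fold change of *Meg3* was -0.41 with a standard error of 0.17, and the adjusted p was 0.154 by edgeR's quasi-likelihood test, with a range of 0.0515 to 0.410 over 20 alternative fits, none of which used the replicate number as a block. *Dlk1* (chr12:109452823-109463336, plus strand) was near the limit of detection, with 27 reads over the 5 young and 26 reads over the 5 old libraries. Its normalized counts were 13.3, 3.02, 6.98, 2.90 and 1.02 in young mice 1 to 5, and 4.00, 2.18, 8.39, 4.82 and 5.83 in old mice 1 to 5. The means of 5.44 ± 4.89 and 5.04 ± 2.30 (SD, n = 5) did not differ beyond the spread between mice (exact two-sided permutation test, p = 0.881).

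*Igf2*, a growth factor of fetal tissue, and *H19*, the long noncoding RNA downstream of it, share an enhancer and a methylated control region on chromosome 7. *Igf2* (chr7:142650766-142666816, minus strand) was the member with a positive fold change. Normalized counts were 49.1, 25.2, 24.9, 20.3 and 23.6 in young mice 1 to 5, and 30.0, 44.7, 14.9, 29.9 and 37.9 in old mice 1 to 5. The groups overlapped over most of their range, and young mouse 1 was the highest of all 10. A log2 fold change of 0.14 was fitted with a standard error of 0.31 (adjusted p = 0.822, edgeR's quasi-likelihood test), and the value was -0.02 without old mouse 2. *Igf2* is a less certain count than most, because 62.1% of its 50-base windows also occur in transcripts of other annotated genes, namely a same-strand gene that overlaps it and *Igf2os* on the opposite strand.

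*H19* (chr7:142575529-142578143, minus strand) had normalized counts of 29.6, 23.1, 69.8, 53.1 and 44.1 in young mice 1 to 5, and of 19.99, 34.9, 39.1, 37.6 and 40.8 in old mice 1 to 5. Young mice 3, 4 and 5 were above every old mouse, and young mice 1 and 2 were within the old range. *H19* was at a log2 fold change of -0.34 with a standard error of 0.30 and an adjusted p of 0.511 in edgeR's quasi-likelihood test. It was -0.11 without young mouse 3 and -0.20 without old mouse 1. An exon of *H19* holds the hairpin of a microRNA whose mature forms, from RefSeq on GRCm38.p6, are shown because they are the known small RNA product of this transcript, with the seed (bases 2 to 8) in capitals.
mmu-miR-675-5p, chr7:142577112-142577133, minus strand: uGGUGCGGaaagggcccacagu
mmu-miR-675-3p, chr7:142577078-142577099, minus strand: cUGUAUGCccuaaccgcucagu

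The 2 seeds differ. The row of *Mir675*, like those of *Mir483* inside *Igf2* and *Mir335* inside *Mest*, held 0 counts in all 10 libraries. For *Mir483* and *Mir335* this allows up to 3 counts in a library taken alone. *Mir675* lies wholly inside an *H19* exon on the same strand. How reads shared by 2 genes were counted is not given, so its 0 counts set no such limit. These libraries were made with an mRNA kit and count long transcripts, so that the microRNAs themselves were not measured.

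Within each mouse the log2 ratio of *H19* to *Igf2* averaged 0.58 ± 0.96 in young mice and 0.17 ± 0.75 in old mice (SD, n = 5, 0.5 added to each normalized count). The difference of -0.40 was within the spread between mice (exact two-sided permutation test, p = 0.476, adjusted p over the 2 ratios = 0.476), and with 1 mouse left out it ranged from -0.73 (without young mouse 1) to -0.18 (without young mouse 3). The log2 ratio of *Meg3* to *Dlk1* averaged 8.60 ± 1.17 in young and 7.99 ± 0.97 in old aortae. This difference of -0.61 also lay within the spread (exact two-sided permutation test, p = 0.389, adjusted p = 0.476), and it ranged from -0.98 without young mouse 1 to -0.29 without old mouse 3. The smallest p that 5 against 5 mice allows in this test is 0.0079, below 0.05. That limit does not show what size of difference could have been found. The ratio of *Meg3* to *Dlk1* also rests on the low counts of *Dlk1*.

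*Mest* encodes an enzyme of the α/β-hydrolase fold that is known to rise in expanding adipose tissue. It lies at chr6:30723547-30748465 (plus strand) and overlaps *Copg2* on the opposite strand, with 21.2% of its windows shared. Normalized counts of *Mest* were 68.5, 36.2, 34.9, 49.2 and 40.0 in young mice 1 to 5, and 34.98, 20.7, 31.7, 44.3 and 36.9 in old mice 1 to 5. The groups overlapped, with young mouse 1 the highest and old mouse 2 the lowest. The log2 fold change was -0.43 with a standard error of 0.25 and an adjusted p of 0.294 in edgeR's quasi-likelihood test. Without young mouse 1, which had the most adipocyte transcripts, it was -0.24 with an adjusted p of 0.529 in that test.

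*Ndn* encodes necdin, a MAGE family protein that is known to restrain cell proliferation and is one of the genes of the Prader-Willi region. It has a single exon, at chr7:62346569-62350262 (plus strand). Its normalized counts were 696, 500.1, 485, 518 and 525 in young mice 1 to 5, and 431, 327, 499, 482 and 514 in old mice 1 to 5. Young mouse 1 stood above and old mouse 2 below all the other mice, and the rest lay close together. Old over young, the log2 fold change was -0.26 with a standard error of 0.13 and an adjusted p of 0.209 in edgeR's quasi-likelihood test. Without young mouse 1 it was -0.16 with an adjusted p of 0.359 in the same test, and without old mouse 2 it was -0.17 with an adjusted p of 0.344.

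The members spanned a wide range of abundance. Per kilobase of exon, *Grb10* was the most abundant with 217 normalized counts per kb in young aortae, followed by *Ndn* with 147, *Peg3* with 127 and *Meg3* with 98.3. *Plagl1* had 21.03, *H19* 17.9, *Mest* 11.6, *Igf2* 5.00 and *Dlk1* 0.962 normalized counts per kb. *Grb10* was above *Ndn* in 10 of 10 mice, *Ndn* above *Peg3* in 9 and *Peg3* above *Meg3* in 10. *Plagl1* and *H19* did not separate, since *Plagl1* was above *H19* in only 6 of the 10 mice, and in old aortae the order of their means was turned, with 14.0 for *H19* and 13.1 for *Plagl1*. *H19* was above *Mest* in 8 mice and *Mest* above *Igf2* in 9.

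Several members had their highest or lowest values in the same mice. Young mouse 1 had the highest value of all 10 mice for *Igf2*, *Dlk1*, *Mest* and *Ndn*, and the lowest young value for *Peg3*, and it was also the mouse with the most adipocyte transcripts. Old mouse 2 had the highest old value for *Igf2*, *Meg3*, *Peg3*, *Plagl1* and *Grb10*, and the lowest old value for *Dlk1*, *Mest* and *Ndn*. This mouse had the highest mitochondrial share and, with 27072 normalized counts, the highest endothelial marker sum of the old group. Old mouse 3 was the lowest old mouse for *Igf2*, *Meg3* and *Peg3* and the highest for *Dlk1*, and it had the lowest endothelial sum of 11968 and the highest leukocyte sum of 21733 normalized counts. The part of these differences in tissue content in the members' values was not tested. With young mice 1 and 2 left out, a choice made after the data were seen, *Plagl1* remained the 1 member called, at a log2 fold change of -0.75 and an adjusted p of 0.0196 by edgeR.

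After removal of the group means, 18 of the 36 pairs of members had a positive correlation over the 10 mice and 0 pairs passed an adjusted p of 0.05, while 6 had an unadjusted p below 0.05 by Pearson's r. The highest r was that of *Mest* with *Ndn*, at 0.88 (exact permutation within groups, p = 0.0128, adjusted p over the 36 pairs = 0.168), with Spearman's rho of 0.83 (exact permutation p = 0.00931, adjusted p = 0.185). It was 0.63 without old mouse 2 and young mouse 1. Here and in the pairs below, the 2 mice left out were those farthest from the median of the first gene named. *Meg3* and *Peg3* had an r of 0.75 (exact permutation p = 0.0144, adjusted p = 0.168) and a rho of 0.68 (exact permutation p = 0.0377, adjusted p = 0.281), and r was 0.34 without old mice 2 and 3, so that this relation rested on those mice. *Peg3* and *Grb10* had an r of 0.59 (exact permutation p = 0.0186, adjusted p = 0.168) and a rho of 0.61 (exact permutation p = 0.0603, adjusted p = 0.310), with r at 0.60 without old mice 2 and 3. The other 3 of the 6 pairs involved *Dlk1*, at its low counts. *Dlk1* and *Peg3* had an r of -0.53, with the smallest p of all pairs (exact permutation p = 0.00694, adjusted p = 0.168), and a rho of -0.75 (exact permutation p = 0.0103, adjusted p = 0.185). *Dlk1* and *Grb10* had an r of -0.74 (exact permutation p = 0.0249, adjusted p = 0.180) and a rho of -0.71 (exact permutation p = 0.0390, adjusted p = 0.281). *Dlk1* and *Ndn* had an r of 0.66 (exact permutation p = 0.0365, adjusted p = 0.219) and a rho of 0.58 (exact permutation p = 0.0992, adjusted p = 0.446). Without young mice 1 and 5 these values of r were -0.78, -0.90 and 0.66.

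The tested genes whose log2 counts scaled to library size followed each member most closely over the 10 mice, with group means removed, are given as a description, since each was picked as the highest among all genes tested. They were *Zfp983*, *Trim66* and *Ankrd44* for *Plagl1* (r of 0.96, 0.95 and 0.94), and *Diablo*, *Gadd45g* and *Sox13* for *Peg3* (0.97, 0.96 and 0.96). For *Grb10* they were *Farsa*, *Gnao1* and *Repin1* (0.97, 0.95 and 0.94), and for *Meg3* they were *Prr14*, *Ccnl2* and *Tsc2* (0.98, 0.98 and 0.97). *Igf2* was followed by *Epb41*, *Kcna6* and *Pkmyt1* (0.97, 0.95 and 0.93), and *H19* by *Tmem185a*, *Gpr137b* and *Hapln1* (0.93, 0.91 and 0.91). *Mest* was followed by *Gm16638*, *Stx17* and *Lrrn1* (0.94, 0.94 and 0.93), and *Ndn* by *C1rl*, *Ccdc42* and *Galnt17* (0.95, 0.95 and 0.95). No member was among the 3 genes nearest to another member.

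**Figure D2:**
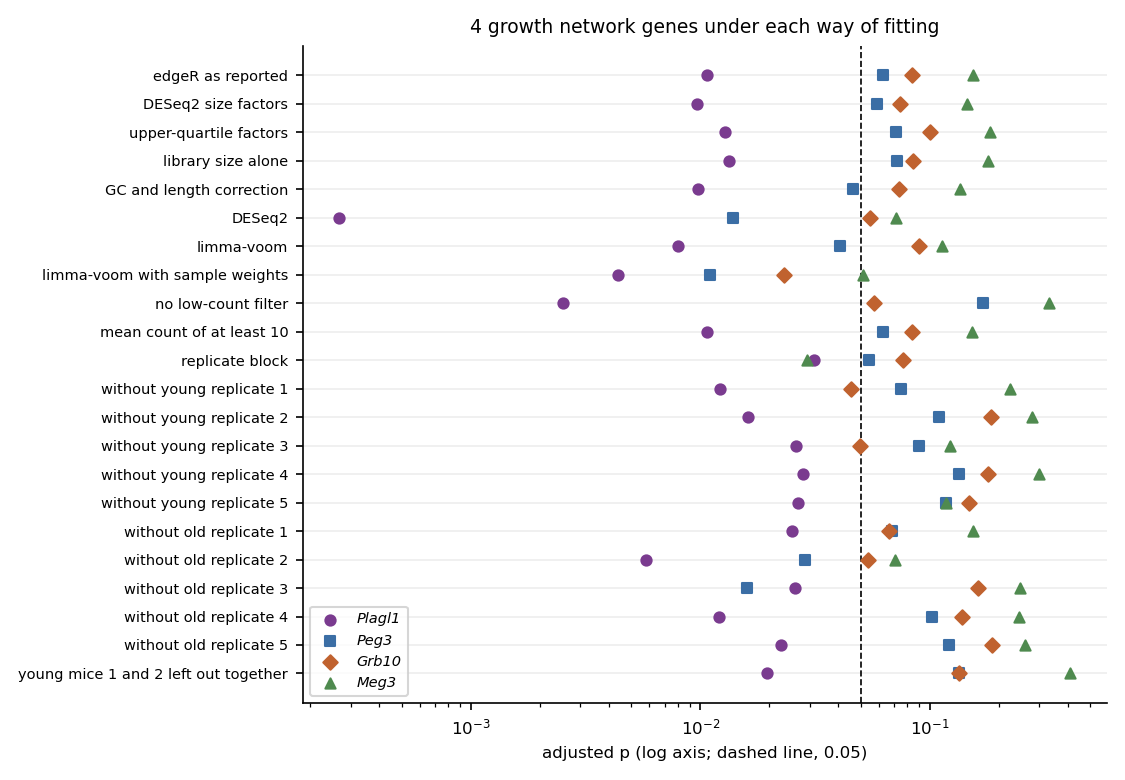
Adjusted p (horizontal log axis) of *Plagl1*, *Peg3*, *Grb10* and *Meg3* in the reported edgeR fit, in 20 alternative fits and in a fit with the replicate number as a block, 1 row per fit, with a dashed line at 0.05. *Plagl1* lies left of the line in every fit shown, while *Peg3*, *Grb10* and *Meg3* cross it in some fits only.

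The call of *Plagl1* held in all 20 alternative fits, with adjusted p-values from 0.000268 in DESeq2 to 0.0280 in edgeR without young mouse 4. Its log2 fold change without 1 mouse at a time ranged from -0.78 to -0.58. Among all genes tested, 4.74% had a smaller p than *Plagl1*. *Peg3* and *Grb10* were at 13.2% and 15.9% on that scale.

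The neighbours of the members differed from locus to locus. Of 25 neighbouring genes, 14 were tested, 3 fell and 1 rose. Among all genes tested, 4.99% were called as lower and 11.5% in either direction. In the cluster of *Dlk1* and *Meg3*, *Rian*, the host of small nucleolar RNAs downstream of *Meg3* that is known to be read from the same parental copy, fell, while *Meg3* did not pass the test, and the difference between the 2 genes was not tested. Normalized counts of *Rian* were 1294, 1543, 1292, 1459 and 1425 in young mice 1 to 5, and 1083, 903, 905, 977 and 1014 in old mice 1 to 5. No old value reached a young value, and the log2 fold change was -0.51 with a standard error of 0.07 and an adjusted p of 0.000527 in edgeR's quasi-likelihood test, called in all 20 alternative fits. *Mirg*, the microRNA host farther downstream, had a mean of 94.8 ± 35.2 in the 5 young mice and of 52.9 ± 16.5 (SD) in the 5 old mice. A log2 fold change of -0.84 had a standard error of 0.28 and an adjusted p of 0.0701 by edgeR, which did not pass the threshold. *Begain*, a gene upstream of *Dlk1* that encodes a protein of neuronal synapses, rose from 9.59 ± 4.55 to 24.6 ± 8.72 normalized counts (log2 fold change 1.36, adjusted p = 0.0276, edgeR). The adjusted p of *Begain* in edgeR was 0.0602 to 0.0684 when young mouse 3 or 5, or old mouse 1 or 3, was left out. *Wdr25* was at a log2 fold change of 0.25 (adjusted p = 0.190, edgeR), and *Dio3* and *Rtl1* averaged below 2 normalized counts in both groups.

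Beside *Peg3*, *Zim1*, a zinc finger gene known to be read from the maternal copy, had normalized counts of 28.6, 35.2, 34.9, 32.8 and 47.1 in young mice 1 to 5. In old mice 1 to 5 they were 18.0, 13.1, 15.8, 20.3 and 9.72. All old values were below all young values, with a log2 fold change of -1.20, a standard error of 0.24 and an adjusted p of 0.00636 in edgeR's quasi-likelihood test, called in all 20 alternative fits. *Peg3* and *Zim1*, although known to be read from opposite parental copies, were thus both without overlap between young and old mice. *Usp29*, which starts head to head with *Peg3*, averaged 1.17 ± 1.58 normalized counts in young aortae and had 0 counts in each old library. In an old library taken alone, up to 3 counts could have been missed.

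Next to *Grb10*, *Cobl*, which encodes an actin nucleator, fell from 621 ± 62.4 to 419 ± 68.2 normalized counts (log2 fold change -0.56, standard error 0.11, adjusted p = 0.00576, edgeR). *Ddc* on its other side averaged about 10 normalized counts and was at a log2 fold change of -0.10 (adjusted p = 0.889, edgeR). The genes nearest to *Plagl1*, *Phactr2* and *Ltv1*, were at log2 fold changes of 0.04 and 0.07 with standard errors of 0.06 and 0.10. Around *Mest*, *Copg2* was at -0.02, *Klhdc10* at -0.08 and *Cep41* at -0.29 (adjusted p = 0.905, 0.413 and 0.175, edgeR). *Mkrn3* near *Ndn* was at 0.25 and *Mrpl23* near *H19* at 0.06 on the log2 scale, and neither passed the test. *Magel2* had 0 counts in all libraries, and *Ins2*, *Th*, *Nctc1* and *Igf2os* were below the filter.

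**Figure D3:**
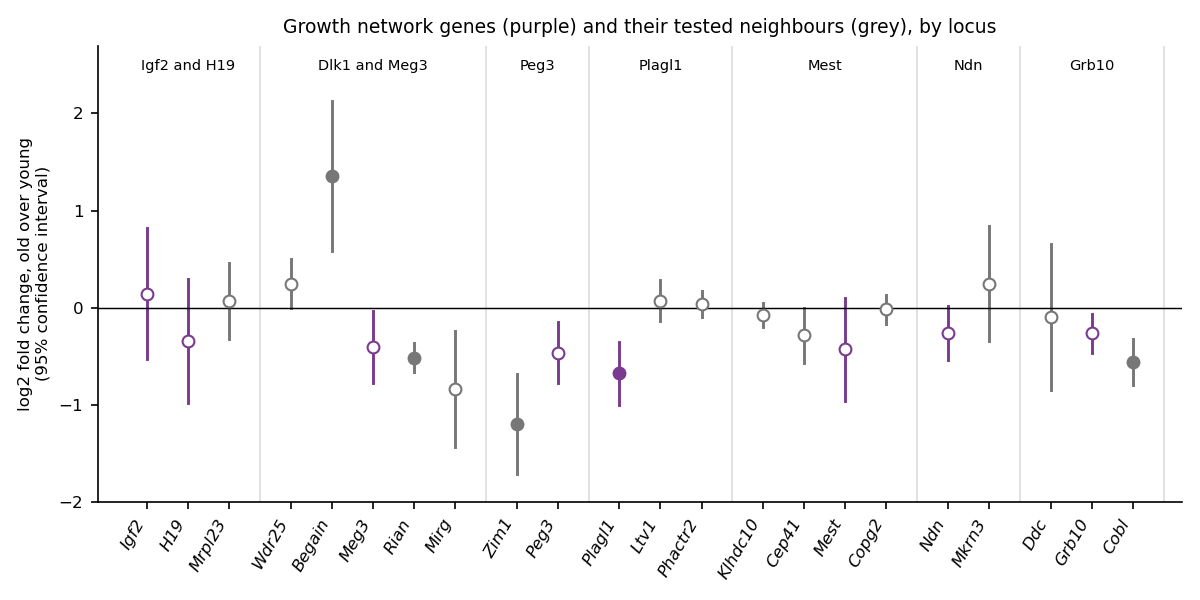
Log2 fold change, old over young, with its 95% confidence interval for the tested members (purple) and their 14 tested neighbours (grey), grouped by locus, with filled points at an adjusted p below 0.05. *Rian*, *Zim1*, *Plagl1* and *Cobl* lie below 0 and *Begain* above, while *Phactr2* and *Ltv1* beside *Plagl1* lie near 0.

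Among 38 other imprinted genes, 30 were tested, 4 fell and 0 rose in edgeR, with a median log2 fold change of -0.06. At an unadjusted p below 0.05 in edgeR there were 7 lower and 2 higher, the share lower being 12.6% over all genes. DESeq2 called 5 lower and 0 higher, against 1085 lower and 1240 higher of 17134 genes in all. The 4 called by edgeR were *Rian* and *Zim1*, *Slc38a4* and *Ppp1r9a*. *Slc38a4*, an amino acid transporter known to be paternally expressed, had normalized counts between 68.8 and 85.9 in young and between 39.1 and 54.95 in old mice, without overlap. Its log2 fold change was -0.65 with a standard error of 0.15 and an adjusted p of 0.0136 in edgeR's quasi-likelihood test, called in 19 of 20 alternative fits, with 0.0505 when young mice 1 and 2 were left out. *Ppp1r9a*, a scaffold of the actin cytoskeleton, was at -0.35 with an adjusted p of 0.0459 in edgeR, and it was called in 8 of 20 alternatives. Leaving out any 1 mouse other than young mouse 5 or old mouse 2 raised its adjusted p above 0.05, to at most 0.104, in edgeR. Well expressed imprinted genes such as *Gnas*, *Peg13*, *Igf2r* and *Sgce* were at -0.09, -0.07, 0.00 and 0.07, with standard errors of 0.06, 0.05, 0.07 and 0.06. *Cdkn1c*, a cell cycle inhibitor known from the same growth network, was at 0.23 with an adjusted p of 0.109 by edgeR. Taking these 30 genes and the members as 1 list of 38 tested genes, 5 fell (13.2%), against 4.99% of all genes tested, and 0 rose. Some of these genes share a locus, and *Rian* and *Zim1* are also counted among the neighbours above. The lists were chosen with earlier results of these data known, and the share was not tested.

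**Figure D4:**
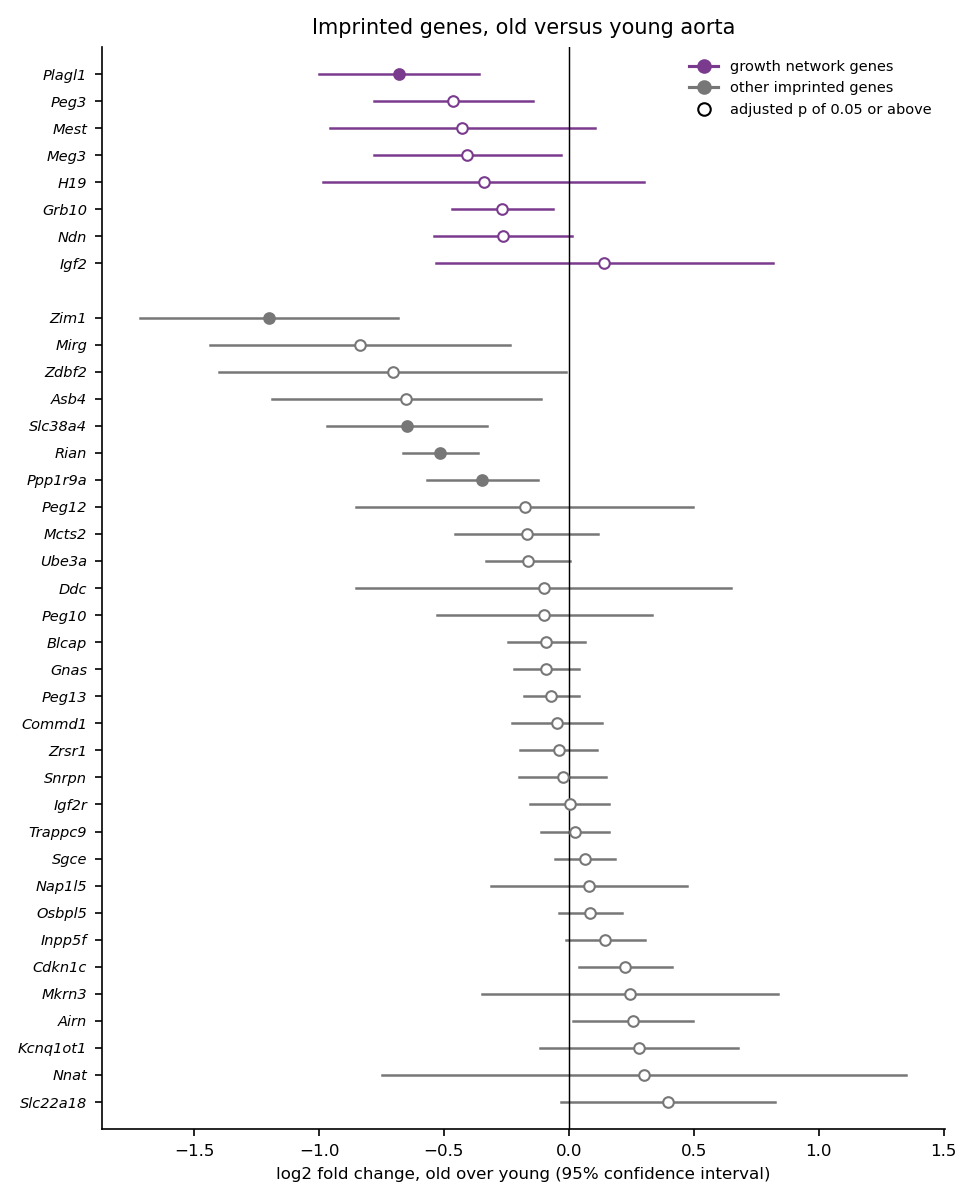
Log2 fold change, old over young, with 95% confidence intervals for the 8 tested growth network genes (purple) and 30 other imprinted genes (grey), filled where the adjusted p is below 0.05. Of the growth network genes 7 lie below 0 and *Igf2* above, and the other imprinted genes range from -1.20 (*Zim1*) to 0.40 (*Slc22a18*).

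The genes grouped here as partners of *Igf2* moved in both directions. They bind, carry or read its product or, in the case of *Igf1*, encode a related growth factor. Of 16 such genes 13 were tested, 2 rose and 2 fell, and their median log2 fold change was 0.00. The share called over all genes tested was 11.5% in either direction and 4.99% as lower. *Igf2bp2*, an RNA-binding protein named for its binding to *Igf2* mRNA, had normalized counts of 108.4, 130.8, 126.6, 109.1 and 141.4 in young mice 1 to 5, and of 31.98, 49.0, 34.5, 47.2 and 29.2 in old mice 1 to 5. The groups lay far apart, with a log2 fold change of -1.67, a standard error of 0.17 and an adjusted p of 8.49e-05 in edgeR's quasi-likelihood test. Its relatives *Igf2bp1* and *Igf2bp3*, known as fetal RNA-binding proteins, averaged below 1 normalized count in both groups. *Igf1*, the growth factor related to *Igf2*, fell from 1320 ± 166 to 975 ± 170 normalized counts (log2 fold change -0.43, adjusted p = 0.0394, edgeR), and 9 of 20 alternatives called it. Its adjusted p in edgeR was 0.0526 to 0.0935 when young mouse 1, 2 or 5, or old mouse 1, 2 or 5, was left out.

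*Igfbp2*, a secreted binding protein of the insulin-like growth factors, rose. Its normalized counts were 359, 391, 1881, 505 and 663 in young mice 1 to 5, and 5840, 1676, 6641, 3392 and 4957 in old mice 1 to 5. Old mouse 2 lay below young mouse 3, and the other 4 old mice were above every young mouse. The log2 fold change of *Igfbp2* was 2.57 with a standard error of 0.56 and an adjusted p of 0.0177 in edgeR's quasi-likelihood test. It was called in 18 of 20 alternatives, and in edgeR the adjusted p was 0.0531 without young mouse 4 and 0.0851 without young mice 1 and 2. *Igfbp4*, another binding protein, rose from 12217 ± 1182 to 17329 ± 2618 normalized counts (log2 fold change 0.51, adjusted p = 0.00754, edgeR). The receptors *Igf1r*, *Igf2r* and *Insr* were at log2 fold changes of 0.07, 0.00 and 0.19, with adjusted p-values of 0.666, 0.983 and 0.236 in edgeR.

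**Figure D5:**
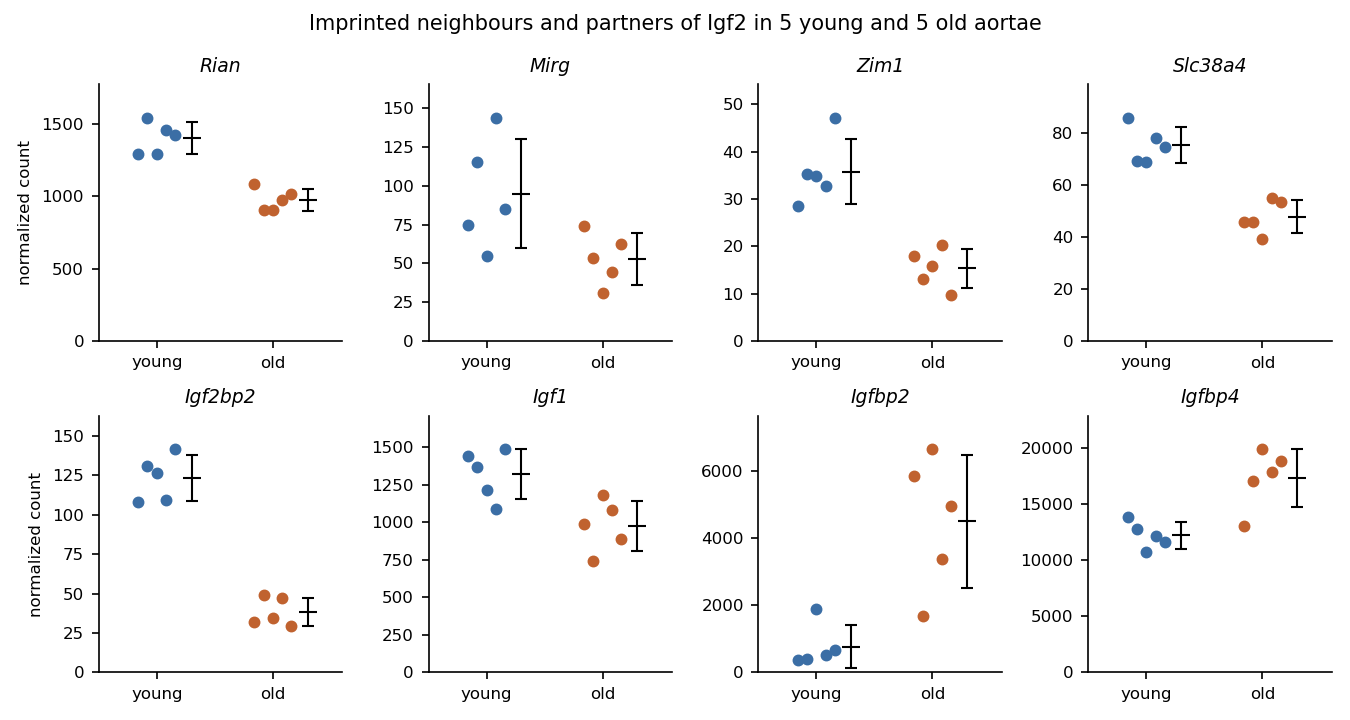
Normalized counts (vertical axes, each from 0) in 5 young and 5 old aortae. Each point is 1 mouse, in the order of mice 1 to 5, and bars give mean ± SD. Shown are 4 imprinted genes, *Rian*, *Mirg*, *Zim1* and *Slc38a4*, and 4 genes grouped as partners of *Igf2*, with the related growth factor *Igf1* among them. *Rian*, *Zim1*, *Slc38a4* and *Igf2bp2* show no overlap between young and old mice, whereas *Mirg*, *Igf1*, *Igfbp2* and *Igfbp4* overlap.

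All 18 factors that set, keep or remove DNA methylation or repressive histone marks at imprinted loci were tested in edgeR, 1 fell and 0 rose, with 4 lower and 1 higher at an unadjusted p below 0.05. For all genes tested in edgeR, the share called as lower was 4.99%, and 12.6% were lower at an unadjusted p below 0.05. DESeq2 also called 1 of the factors lower and 0 higher, against 1085 lower and 1240 higher of 17134 genes in all. *Ezh2*, the methyltransferase of the Polycomb complex, went from 101.6 ± 8.60 to 62.7 ± 14.5 normalized counts (SD, n = 5), a log2 fold change of -0.68 with a standard error of 0.16 and an adjusted p of 0.0163 in edgeR's quasi-likelihood test. It was called in 19 of 20 alternatives and lost with young mice 1 and 2 left out. *Dnmt1*, the maintenance DNA methyltransferase, was at a log2 fold change of 0.14, and *Zfp57* and *Trim28*, which protect methylation at imprinted control regions in the embryo, were at -0.50 and -0.07. Adjusted p-values for *Dnmt1*, *Zfp57* and *Trim28* were 0.164, 0.222 and 0.520 in edgeR.

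Markers of other cells of the wall moved beside these genes. Over all genes, edgeR called 947 of 14614 higher and 729 lower, and DESeq2 called 1240 of 17134 higher and 1085 lower. All 10 endothelial markers had a negative log2 fold change, with a median of -0.60 and 1 called by edgeR (*Tek*) and 6 by DESeq2, and their sum was 22898 to 38831 normalized counts in young and 11968 to 27072 in old mice. All 8 tested leukocyte markers had a positive log2 fold change, with a median of 0.75 and 2 called by edgeR (*Cd68* and *Adgre1*), where DESeq2 called 8 of 10, and their sum was 7209 to 10662 in young and 9923 to 21733 in old mice. The 10 adipocyte markers had a median of -0.73 with 0 called in edgeR, 4 lower at an unadjusted p below 0.05 and 1 called lower in DESeq2. The 4 striated muscle markers tested in edgeR had a median of -0.64 with 0 called and 0 at an unadjusted p below 0.05, and DESeq2 called 1 of 7 lower. The 10 smooth muscle markers had a median of 0.00 with 1 called, *Smtn*, which rose. Of 10 adventitial markers *Lum* rose and *Pi16* fell in edgeR, with a median of 0.04, and DESeq2 called 3 higher and 1 lower. Their sums were 158605 to 183139 normalized counts in young and 148523 to 196335 in old mice. Schwann cell and neuron markers summed to 2002 to 2688 in young and 2980 to 3730 in old mice, with *Uchl1* and *Tubb3* called as higher. Of the 8 tested, 7 had a positive log2 fold change, with a median of 0.49. Proliferation genes summed to 1391 to 1497 in young and 1315 to 1596 in old mice, with *Mcm2* called as higher. The log2 fold change was positive for 8 of the 9 proliferation genes tested, with a median of 0.32. None of 5 mesothelial markers passed the filter. In exact two-sided permutation tests of the summed level, p was 0.0079 for Schwann cell and neuron, 0.0159 for leukocyte and 0.0317 for endothelial markers. Adjusted p-values over the 9 lists were at least 0.0714. The smallest p that 5 against 5 mice allows, 0.0079, becomes 0.0714 if only 1 list reaches it. A single list without overlap could therefore not pass 0.05. No marker in these lists was without a count in the table. The part of the endothelial and leukocyte differences in the lower level of *Plagl1* and the other members was not tested.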

How the data were processed

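Total RNA of whole aortae was made into stranded mRNA libraries, 1 per mouse. Per the labels and the study's methods, the authors trimmed reads with fastp 0.20.0, removed reads below 35 bases, aligned them with STAR 2.7.0f to GRCm38 with GENCODE M22, and counted them per gene with featureCounts of Subread 1.6.4. The deposited table holds these raw counts, without normalization, for 55453 symbols. The strand setting and the treatment of reads with several alignments are not given in the sources used here.

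Positions and exonic lengths came from GENCODE M21, to which 54471 symbols matched. Genes were filtered with filterByExpr, which kept 14614 of 28011 with a count, and compared with edgeR 4.0.16 (robust quasi-likelihood F test, TMM scaling, no covariate) under R 4.3.3, with Benjamini-Hochberg adjustment over all tested genes and a threshold of 0.05. Normalized counts are counts divided by DESeq2 1.42.0 size factors. Counts differed 8.06 to 58.8 times more between mice of a group than counting error gives (chi-square over degrees of freedom, 20 pairs). The edgeR p-values set the difference between groups against the spread between these mice, estimated with information shared across genes. Permutation p-values rank the observed value among reassignments of the mice. The samples' replicate numbers did not pair: deviations of equal-numbered mice correlated between -0.30 and 0.13.

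The members and gene lists were chosen with earlier results of these data known. Named genes were all members, the called genes of the lists up to a fixed number per list by smallest p, the neighbours of members, and the 3 tested genes most like each member, and further genes were named after their values were seen. In simulated counts for 14614 genes with 200 changed by a log2 fold of 1, edgeR recovered 152 with 9 false calls. The members changed by less, at most -0.68 for *Plagl1*, and recovery of changes of that size was not simulated. Alternatives were DESeq2, limma-voom 3.58.1 with and without sample weights, other scalings, a correction for GC content and length, other filters, the replicate number as a block, an adjusted p below 0.01, and each mouse left out in turn. Leaving out young mice 1 and 2 together was added after seeing the data.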

Additional observations from a re-analysis of the deposited data

Results flagged for a closer look

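In the 18 groups of 5 mice that the 9 members give, 3 values stood far from the other mice of their group, by the gap to the nearest mouse over the group's range (limit 0.71). Chance flags about 1 in 20 such groups. In young mouse 1, *Igf2* had 49.1 normalized counts, with the nearest young mouse at 25.2 (gap over range 0.831), and *Ndn* had 696, with the nearest at 525 (0.811). In old mouse 1, *H19* had 19.99 normalized counts, with the nearest old mouse at 34.9 (0.714).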

How the results depend on the processing

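The call of *Plagl1* held in every alternative fit at a threshold of 0.05. The number of members called, 1 as reported, was 2 with the GC and length correction, with DESeq2 and with limma-voom (*Peg3* added each time), 3 with limma-voom and sample weights (*Peg3* and *Grb10* added), 0 at an adjusted p below 0.01, and 1 to 2 with 1 mouse left out. With the replicate number as a block it was 2, *Meg3* being added (log2 fold change -0.42, adjusted p 0.0291), while 1261 of all genes were called. The numbers do not pair the mice, and 2 of 5 young mice correlated best with their own number. Of all 14614 genes tested in edgeR, 1676 were called as reported, 1842 with the GC and length correction and 658 at 0.01. DESeq2 called 2325 of 17134 genes, limma-voom 1695 of 14614, and limma-voom with sample weights 2643 of 14614. At 0.01, the other imprinted genes had 2 calls in place of 4, the partners of *Igf2* 2 in place of 4 and the imprinting maintenance factors 0 in place of 1. With young mice 1 and 2 left out together, the partners of *Igf2* had 2 calls and the maintenance factors 0. The maintenance factors had 2 calls with limma-voom and sample weights, and 1 to 2 with 1 mouse left out (2 without old mouse 1). The sign turned for *Igf2*, whose log2 fold change was between -0.020 (without old mouse 2) and 0.42 (without young mouse 1) with 1 mouse left out. It also turned for the ratio of *Dlk1* means, old over young, which was 0.927 as reported, 0.770 to 1.45 with 1 mouse left out (1.45 without young mouse 1, 1.06 without old mouse 2) and 1.39 without young mice 1 and 2. The cause was not tested. *Dlk1* had 27 reads in young and 26 in old libraries, and its values also spread widely between mice. With 1 mouse left out, the log2 ratio differences ranged from -0.73 to -0.18 for *H19* over *Igf2* and from -0.98 to -0.29 for *Meg3* over *Dlk1*.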
